A study of Mus musculus with 12 samples.

Results

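The heat shock transcription factor gene Hsf1 and 9 heat shock protein genes were measured by RNA sequencing in mouse mammary tumourspheres treated for 24 h with kinase inhibitors. The genes were taken by symbol from the table of raw read counts: Hsf1, Hspa1a, Hspa1b, Hspa8, Hsph1, Hsp90aa1, Hsp90ab1, Hspb1, Hspd1 and Hspe1. They are 10 of 55573 genes in the table. All 10 passed the filter on low counts and stand among the 13836 genes tested, and the smallest count of any of them in any library was 32.

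The study grew spindloid tumour cells, which have a mesenchymal shape, as spheres in suspension and asked how the cells respond when MET and FGFR signalling are blocked together. The 12 libraries come from 3 cell lines, A1005, A1129 and A1471, each exposed to DMSO (the solvent control), to Crizotinib (an inhibitor of MET and related kinases), to PD173074 (an inhibitor of FGF receptors) or to both, called Combo here. Each inhibitor was used at 1 µM per the methods of the study. All 4 treatment groups, the control included, carry the genotype MMTV-Metmt;Trp53fl/+;Cre, in which the mouse mammary tumour virus promoter drives a mutant Met, 1 Trp53 allele is floxed and Cre is present. Each line was derived from a separate breast tumour and is 1 line, so the 3 replicates of a treatment are 3 lines. Without pairing the p-values measure the spread among these lines. In a fit with the line as a block, they measure how far the response to treatment varied among the lines. The serum-free sphere medium contained EGF, bFGF and insulin in every group, so growth factors were present in the DMSO libraries too.

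HSF1 is a transcription factor held inactive in the cytosol by chaperones. When unfolded proteins occupy those chaperones, HSF1 forms trimers, enters the nucleus and binds repeats of the short unit NGAAN upstream of chaperone genes. Its targets include inducible HSP70, HSP110, HSP90, small heat shock proteins and the mitochondrial chaperonin, while the constitutive forms of HSP70 and HSP90 are abundant in growing cells without any heat shock, and tumour cells often hold these proteins at high levels.

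Promoter stretches of 5 members are shown because they hold letters that match short repeats of the unit that HSF1 binds. RefSeq promoters on the build GRCm38.p6, each covering 250 bases before and 50 bases after a transcription start, were matched for 6 of the 10 genes. Entries for Hsf1, Hspa8, Hsp90aa1 and Hsp90ab1 were not in the table used here. The lines below run 5′ to 3′ on the strand of the gene. Capitals mark the GAA and TTC units of a match to GAANNTTC or TTCNNGAA, and each sequence is a part of its promoter window.

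Hspa1a: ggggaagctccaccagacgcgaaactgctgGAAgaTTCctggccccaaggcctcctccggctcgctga
Hspa1b: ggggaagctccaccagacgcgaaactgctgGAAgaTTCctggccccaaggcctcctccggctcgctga
Hspb1: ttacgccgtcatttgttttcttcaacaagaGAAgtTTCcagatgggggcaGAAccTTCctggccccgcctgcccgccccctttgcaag
Hspe1: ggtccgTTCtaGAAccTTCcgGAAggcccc
Hsph1: gggtagaatctTTCtcGAAggctcgagaag

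The Hspa1a stretch lies at chr17:34972223-34972290 on the minus strand and the Hspa1b stretch at chr17:34959305-34959372 on the minus strand, both from 134 to 67 bases before the start. The 2 stretches have the same 68 letters, and the whole promoters of the 2 genes differ at 4 of 300 bases. The Hspb1 stretch lies at chr5:135887772-135887859 on the plus strand, 147 to 60 bases before the start, and holds 2 matches. The Hspe1 stretch lies at chr1:55088053-55088082 on the plus strand, 95 to 66 bases before its start and inside an annotated exon of Hspd1, which is read from the other strand. The Hsph1 stretch lies at chr5:149636351-149636380 on the minus strand, 44 to 15 bases before the start and inside an annotated Hsph1 exon.

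GAANNTTC was found, on either strand, in the promoters of 6 of the 6 matched genes and in 2582 of all 32851 promoters, or 7.86%. The members were counted by gene, with a match at any annotated start enough, whereas the share is over single promoters. Hspd1 and Hsph1 each have 2 starts, and the first start of Hspd1 has 0 matches. The Hspd1 and Hspe1 matches are the same bases, chr1:55088064-55088071. TTCNNGAA was found in 3 of the 6, Hspd1, Hspe1 and Hsph1, and in 8.52% of all promoters. At least 1 of these 2 matches was present in 15.1% of all promoters. A longer match of 3 such units in a row, which contains both shorter ones, was present in the same 3 genes and in 0.603% of all promoters. Hspd1 and Hspe1 share 1 stretch with it. In Hsph1, on the minus strand, it lies at chr5:149636288-149636300, after both annotated starts (149636336 and 149636315). This Hsph1 match is outside the stretch printed above, and so is the only GAANNTTC match of Hsph1, which lies within it. A match describes letters in a window and is not a measurement of HSF1 binding.

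Hspd1 and Hspe1 are read in opposite directions from starts 95 bases apart on chromosome 1, and the Hspe1 match printed above also lies in the window before a second annotated start of Hspd1. The other members are spread over chromosomes 5, 9, 12, 15 and 17 of the mm10 build. Hspa1a at chr17:34969190-34972156 and Hspa1b at chr17:34956436-34959238 are neighbours on the minus strand. Hsf1 is at chr15:76477422-76501913, Hspa8 at chr9:40800984-40810087 and Hspb1 at chr5:135887919-135889563, all on the plus strand. Hsph1 is at chr5:149614287-149636376 and Hspd1 at chr1:55077835-55088243 on the minus strand, and Hspe1 is at chr1:55088132-55091307 on the plus strand. The HSP90 genes are on different chromosomes, with Hsp90aa1 at chr12:110690605-110702728 and Hsp90ab1 at chr17:45567775-45573271, both on the minus strand.

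Library totals ran from 13031492 to 17750476 reads, and no 2 of the 12 libraries held the same counts. Known readouts of MET and FGFR signalling moved with Combo: Etv5, an ETS transcription factor gene induced by ERK, fell by 4.99 on the log2 scale against DMSO (adjusted p = 4.3e-05, edgeR's quasi-likelihood test), and Etv4, Dusp6 and Spry4 stood at −4.74, −5.03 and −5.98. With Crizotinib alone the same 4 genes were at 0.13 (Etv5), 0.03 (Etv4), 0.30 (Dusp6) and 0.25 (Spry4) and were not called, and with PD173074 alone they lay between −0.99 and −1.11, called in a fit with the line as a block only. The 7 mesenchymal markers summed to 3502–5232 CPM (counts scaled to a common library total) with DMSO and 3595–9747 with Combo. The means of single markers lay on both sides of DMSO with Combo, with Fn1 at 748 and 2333, Sparc at 391 and 1398.5, Vim at 2889.8 and 2615 and Twist1 at 113 and 53.2 CPM, and Cdh2 near 0. The 6 epithelial markers summed to 16.1–39.6 and 7.32–42.2 CPM with Krt5 at 0 in every library. Markers of leukocytes (5 genes, 4.41–31.3 and 8.45–42.2 CPM, Lyz2 at 0 in every library) and of endothelium (3 genes, 0.207–0.390 and 0.151–0.627 CPM) were low. In such bulk samples fewer cells of a type and less RNA per cell cannot be told apart.

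The members differed widely in level before any inhibitor was added. In DMSO, per kilobase of annotated exon, Hsp90ab1, which encodes the constitutive cytosolic HSP90 beta, was highest at 1218 ± 201 CPM per kb (SD, n = 3). The mitochondrial chaperonin gene Hspd1 followed at 464 ± 75.0, then Hsp90aa1, which encodes the more inducible HSP90 alpha, at 379 ± 97.5, and Hspa8, which encodes the constitutive HSC70, at 346 ± 61.1 CPM per kb. The libraries of Hspd1 overlapped those of Hsp90aa1, and those of Hsp90aa1 overlapped those of Hspa8, so the order of these neighbours is not separated by the spread among lines. Hspe1, the lid of the mitochondrial chaperonin, was at 141 ± 9.26 and Hsph1, the HSP110 that exchanges nucleotide on HSP70, at 55.5 ± 10.9 CPM per kb. The 4 lowest were the small heat shock protein gene Hspb1 at 14.6 ± 12.8, the inducible HSP70 gene Hspa1b at 10.1 ± 9.84, Hsf1 at 9.22 ± 2.41 and the second inducible HSP70 gene Hspa1a at 2.37 ± 2.15 CPM per kb. Hspb1, Hspa1b and Hsf1 overlapped with their neighbours in this order. The order depends on the length of all annotated exons, 7099 bp for Hsf1 and 1031 bp for Hspb1. In CPM with DMSO Hsf1 was at 65.5, above Hspa1b at 28.3 and Hspb1 at 15.1. Of the 50-base stretches of Hspa1a and Hspa1b, 66.3% and 62.3% occur in other annotated genes, so the levels of these 2 genes are uncertain.

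**Figure D1:**
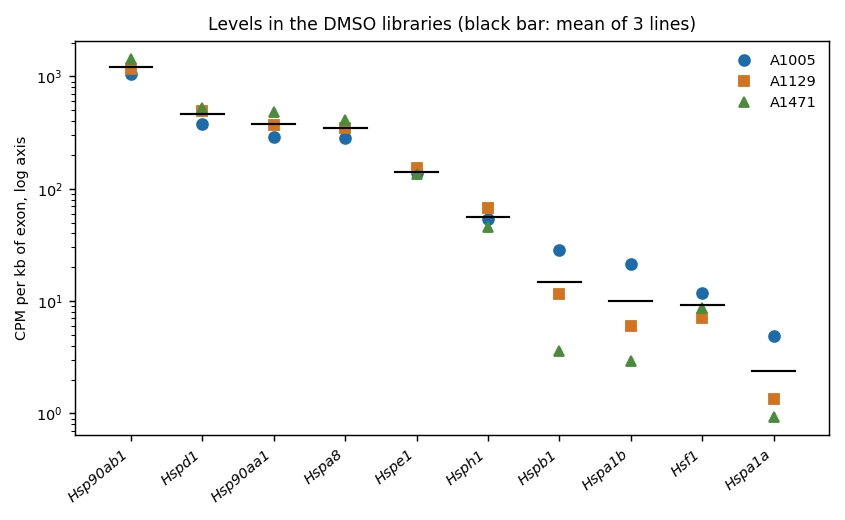
Level of each member in the 3 DMSO libraries, in CPM per kilobase of exon on a log axis, with 1 point per cell line and the mean marked. Hsp90ab1 stands highest at 1218 CPM per kb, and the points of Hspb1, Hspa1b and Hspa1a spread over a far wider range than those of the other members.

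The lines differed most in Hspb1, Hspa1b and Hspa1a. Among DMSO libraries the ratio of the highest line to the lowest was 7.91 for Hspb1, 7.33 for Hspa1b and 5.20 for Hspa1a, and in each of these A1005 was highest and A1471 lowest. For the other 7 members the ratio was between 1.13 (Hspe1) and 1.67 (Hsp90aa1). Hspa1b was the only member whose 4 libraries of each line stood apart from those of both other lines, at 59.7–85.4 CPM in A1005, 17.0–28.5 in A1129 and 8.15–12.9 in A1471. Such a separation was seen for 8.02% of all genes tested. Lines were described and not tested, since each is a single line.

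Against DMSO, Combo lowered both subunits of the mitochondrial chaperonin, Hspd1 2.53-fold and Hspe1 1.70-fold. These were the 2 members called by edgeR's quasi-likelihood test without pairing, both lower, when 14.4% of all tested genes were called and 8.28% were called lower. All 10 members had 1 direction in all 3 lines, where 65.8% of all genes did: Hspa1a, Hspa1b and Hspb1 were higher (34% of all genes) and the other 7 lower (31.9%). A second fit of the same test took out the differences among the 3 lines by treating each line as a block. This blocked fit called 8 members, 3 higher and 5 lower, beside 54.8% of all genes (28.6% higher and 26.2% lower). The members not called under either fit were Hspa8 and Hsp90ab1. The median log2 fold change of the members was −0.35, and that of all tested genes was 0.02. The members took 0.850 ± 0.126% of all counts with DMSO and 0.662 ± 0.0807% with Combo (SD, n = 3).

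**Figure D2:**
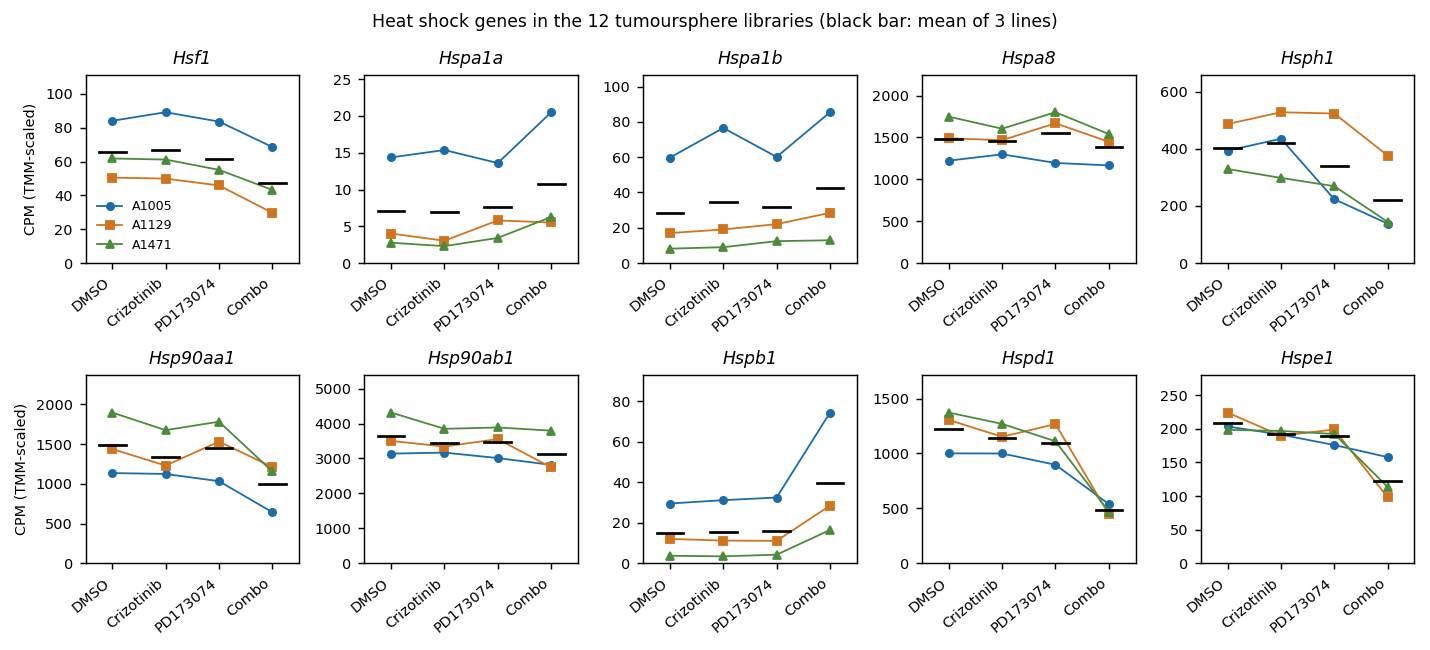
CPM of each member, on axes that start at 0, in all 12 libraries by treatment, with lines joining the libraries of the same cell line and a black bar at the mean of each treatment. The 3 Combo libraries of Hspd1, at 445–539 CPM, lie below all of the others, and for Hspb1 all 3 lines are highest with Combo although the lines start far apart.

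Hsf1, the regulator itself, was read at 84.1, 50.5 and 61.8 CPM with DMSO in A1005, A1129 and A1471 and at 68.6, 29.7 and 43.2 CPM with Combo. Each line was lower with Combo, with log2 differences of −0.29, −0.76 and −0.51, but the 2 treatments overlapped. The log2 fold change was −0.47 (SE 0.36, adjusted p = 0.436, edgeR's quasi-likelihood test), and in the blocked fit it was −0.52 (SE 0.10, edgeR adjusted p = 0.00156), or 1.43-fold lower.

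Hspa8 encodes HSC70, the constitutive HSP70 that folds and sorts proteins in all cells. It was at 1223, 1490.3 and 1748.5 CPM with DMSO in A1005, A1129 and A1471, and at 1166, 1448 and 1540.5 CPM with Combo. The treatments overlapped nearly in full, and A1005 was lowest under both. The log2 fold change was −0.10 (SE 0.20, edgeR adjusted p = 0.804; in the blocked fit −0.10, SE 0.10, edgeR adjusted p = 0.417). Of all members Hspa8 had the smallest log2 fold change between Combo and DMSO. Reads of Hspa8 may be shared with copies, since 39.4% of its 50-base stretches occur in other annotated genes.

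Hspa1a and Hspa1b encode the inducible HSP70, which is low in unstressed cells and refolds proteins after heat. Hspa1b was at 59.7, 17.0 and 8.15 CPM with DMSO in A1005, A1129 and A1471, and at 85.4, 28.5 and 12.9 CPM with Combo. Hspa1a was at 14.4, 4.01 and 2.76 CPM with DMSO and at 20.5, 5.51 and 6.26 CPM with Combo. Both were higher with Combo in each line, but the difference among lines was larger than that between treatments, and the treatments overlapped. Without pairing neither was called (Hspa1b 0.58, SE 1.02, adjusted p = 0.773; Hspa1a 0.61, SE 0.92, adjusted p = 0.729, log2 scale, edgeR). In the blocked fit Hspa1b was 1.55-fold higher (edgeR adjusted p = 0.0039) and Hspa1a 1.63-fold higher (edgeR adjusted p = 0.0278), and without A1471 the blocked call of Hspa1a was lost (edgeR adjusted p = 0.179). Of the 50-base stretches of Hspa1a exons, 58.8% also occur in Hspa1b, so how reads were divided between the 2 genes is uncertain.

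Hsph1 encodes HSP110, which drives the HSP70 cycle by releasing ADP and helps to dissolve aggregates. With DMSO it was at 394, 487 and 329.5 CPM in A1005, A1129 and A1471, and with Combo at 138, 377 and 144 CPM. A1005 and A1471 with Combo lay below all DMSO libraries, whereas A1129 with Combo remained above the lowest DMSO library. The log2 fold change was −0.88 (SE 0.45, edgeR adjusted p = 0.229), and in the blocked fit it was −1.01 (SE 0.22, edgeR adjusted p = 0.00289), or 2.02-fold lower. Without A1471 the blocked value missed the threshold (edgeR adjusted p = 0.064).

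HSP90 holds kinases and steroid receptors, MET among its clients, in a form ready for activation. Hsp90aa1 was at 1136, 1438 and 1897 CPM with DMSO in A1005, A1129 and A1471, and at 643, 1213 and 1156 CPM with Combo. It was lower with Combo in each line, and the Combo library of A1129 lay above the DMSO library of A1005. The log2 fold change was −0.57 (SE 0.31, edgeR adjusted p = 0.260). In the blocked fit it was −0.58 (SE 0.14, edgeR adjusted p = 0.00497), and without A1471 this call was lost (edgeR adjusted p = 0.0885). Of the 50-base stretches of Hsp90aa1 47.5% occur in other annotated genes, and of those of Hsp90ab1 3.44%. Hsp90ab1 was at 3139.6, 3503 and 4315 CPM with DMSO in A1005, A1129 and A1471, and at 2817, 2745 and 3796 CPM with Combo. Each line was lower with Combo, and the treatments overlapped. Its log2 fold change was −0.23 (SE 0.19, edgeR adjusted p = 0.486), and it was not called in the blocked fit either (edgeR adjusted p = 0.0939).

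Hspb1 encodes the small heat shock protein HSP25, the mouse HSP27, which holds unfolded proteins in large oligomers without using ATP and binds actin. It had the largest log2 fold change of the members. Its level was 29.5, 12.04 and 3.73 CPM with DMSO in A1005, A1129 and A1471, and 74.4, 28.5 and 16.4 CPM with Combo. Every line was higher with Combo, by 1.33, 1.23 and 2.10 on the log2 scale, and A1471 with Combo still lay below A1005 with DMSO. Without pairing the log2 fold change was 1.40 with an SE of 1.02 (edgeR adjusted p = 0.417). In the blocked fit it was 1.55 with an SE of 0.19 (edgeR adjusted p = 1.0e-04), or 2.93-fold higher. Of its 50-base stretches 50.1% occur in other annotated genes.

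Hspd1 encodes HSP60, the barrel of the chaperonin that folds proteins imported into mitochondria. With DMSO it was read at 1001, 1305 and 1372 CPM in A1005, A1129 and A1471, and with Combo at 539, 445 and 470.4 CPM. The highest Combo library lay well below the lowest DMSO library. Hspd1 fell by 1.34 on the log2 scale (SE 0.19, edgeR adjusted p = 0.00183; blocked fit −1.32, edgeR adjusted p = 6.9e-05). Without A1129 the unpaired adjusted p was 0.0739 and without A1471 it was 0.0889, whereas without A1005 it was 0.00731 (edgeR). Of the 50-base stretches of Hspd1 exons 42.1% also occur in other annotated genes.

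Hspe1 encodes HSP10, the lid that closes the HSP60 barrel. It was read at 203, 224 and 198 CPM with DMSO in A1005, A1129 and A1471, and at 158, 97.8 and 113 CPM with Combo. The treatments did not overlap, and A1005 kept the highest Combo value. Hspe1 fell by 0.76 on the log2 scale (SE 0.17, edgeR adjusted p = 0.0167; blocked fit −0.77, edgeR adjusted p = 0.00171). Without A1129 the unpaired adjusted p was 0.189 and without A1471 it was 0.206, whereas without A1005 it was 0.0149 (edgeR). Of the 50-base stretches of Hspe1 22.8% occur in other annotated genes. Exons of Hspd1 and Hspe1 overlap over 112 bp on opposite strands, and whether reads were counted by strand is not given in the sources used here. Hspd1 and Hspe1 were the 2 members whose Combo and DMSO libraries did not overlap, a separation seen downward for 16.1% of all genes tested.

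With PD173074 alone no member was called. The percentage of all genes called was 0 without pairing and 2.14 in the blocked fit, and the count of members called was 0 in both. The count of members at an unadjusted p under 0.05 was also 0, beside 307 of all 13836 genes without pairing and 2175 in the blocked fit. DESeq2 called 0 members, beside 17 genes without pairing and 635 with the block. By limma-voom 0 members and 0 genes were called. The lowest blocked adjusted p was that of Hspa1b (0.322, edgeR). Hspa1b was higher and Hsf1, Hspd1 and Hspe1 were lower in all 3 lines, 4 of 10 members with 1 direction, beside 47.3% of all genes. Hspd1 stood at 897, 1267 and 1111 CPM in A1005, A1129 and A1471 with PD173074, a log2 fold change of −0.17 (SE 0.18) from DMSO. Hsph1 stood at 224, 524 and 269 CPM, with log2 differences from DMSO of −0.82, 0.11 and −0.29.

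With Crizotinib alone no member was called either. The percentage of all genes called was 0 in both fits. No member had an unadjusted p under 0.05, beside 18 of all 13836 genes without pairing and 258 in the blocked fit. DESeq2 called 0 members, beside 1 gene without pairing and 2 with the block. By limma-voom 0 members and 0 genes were called. The direction was the same in all 3 lines for 4 of 10 members, Hspa1b higher and Hsp90aa1, Hspd1 and Hspe1 lower, beside 35.6% of all genes. Hspe1 was at 191, 189 and 197 CPM in A1005, A1129 and A1471, just under the lowest DMSO library of 198 CPM, and was the 1 member without overlap, a pattern seen downward in 0.853% of genes. Its log2 fold change was −0.12 (SE 0.17), smaller than its error. Hspb1, at 31.2, 11.2 and 3.45 CPM, differed from DMSO by 0.02 on the log2 scale, far less than the spread among lines.

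**Figure D3:**
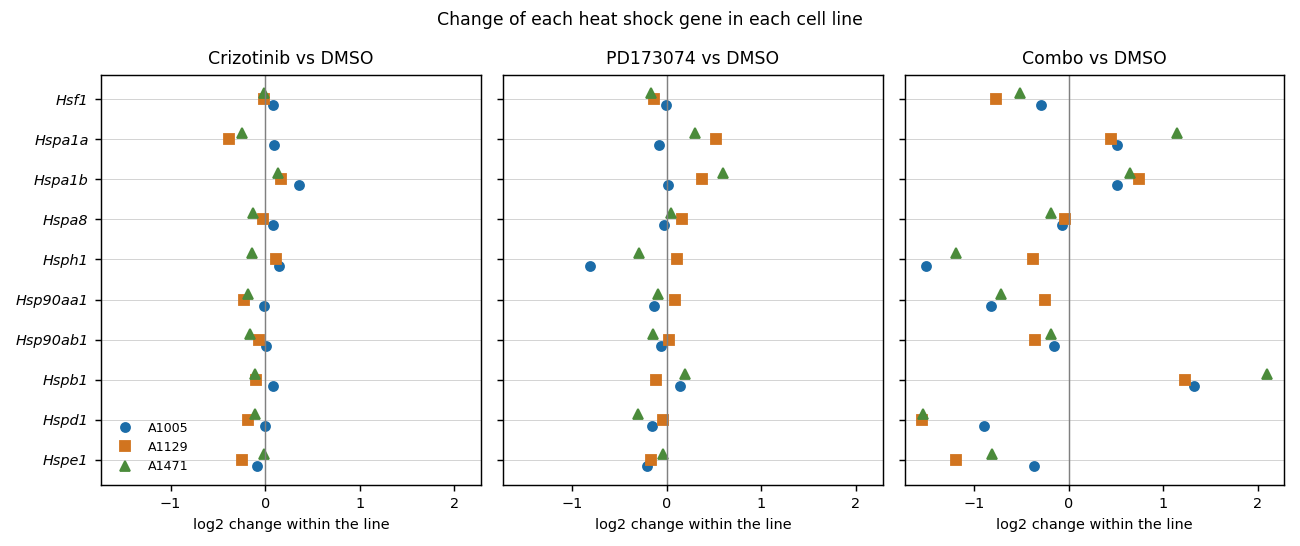
Difference from DMSO in log2 CPM for each member under Crizotinib, PD173074 and Combo, with 1 point per cell line and a line at 0. With the single inhibitors most points lie close to 0, and with Combo all 3 points of every member lie on 1 side, up to 2.10 for Hspb1 in A1471 and down to −1.55 for Hspd1 in A1129.

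Combo was also set against each inhibitor alone, which asks what the second inhibitor added; these comparisons share the Combo libraries with the comparison above. Against Crizotinib, 13.2% of all genes were called without pairing, 7.78% lower, and Hspd1 (log2 fold change −1.23, edgeR adjusted p = 0.00287) and Hspe1 (−0.65, edgeR adjusted p = 0.0332) were the 2 members called. When blocked 53.4% of all genes and 8 members were called, Hspa1a, Hspa1b and Hspb1 higher (27.4% of all genes) and Hsf1, Hsp90aa1, Hspd1, Hspe1 and Hsph1 lower (26%). Against PD173074, 4.77% of all genes were called, 3.93% lower, and Hspd1 was the 1 member called (−1.17, edgeR adjusted p = 0.00608), while Hspe1 missed the threshold (−0.62, edgeR adjusted p = 0.0719; in the blocked fit edgeR adjusted p = 0.00871). The blocked fit called 39.8% of all genes and 6 members against PD173074, Hspb1 higher (19.6% of all genes) and Hsf1, Hsp90aa1, Hspd1, Hspe1 and Hsph1 lower (20.2%). Hspa1a and Hspa1b were called when blocked against Crizotinib and not against PD173074, where the edgeR adjusted p was 0.142 for Hspa1a and 0.102 for Hspa1b. Whether the 2 comparisons differ for these genes was not tested. Hspd1 and Hspe1 with Combo did not overlap with either inhibitor alone, a separation found downward in 16.1% of genes against Crizotinib and in 12.7% against PD173074. Without pairing the calls of Hspd1 were lost without A1129 (edgeR adjusted p = 0.0792 against Crizotinib and 0.258 against PD173074) and without A1471 (edgeR adjusted p = 0.109 and 0.172), as was that of Hspe1 against Crizotinib (edgeR adjusted p = 0.224 and 0.329). Hspe1 passed against PD173074 when A1005 was left out (edgeR adjusted p = 0.0378). The blocked fit called 7, 7 and 4 members against Crizotinib and 5, 4 and 2 against PD173074 without A1005, A1129 and A1471. The share of all genes called in these fits is not given, so these counts cannot be set against it.

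The departure from additivity is the effect of PD173074 in the presence of Crizotinib minus its effect in the absence of Crizotinib, on the log2 scale, and is 0 if the 2 inhibitors add up. Without pairing 0.918% of all genes were called by edgeR and none of the members. In that fit 1 member had an unadjusted p under 0.05, beside 1250 of all 13836 genes. DESeq2 called 1 member, Hspd1 (DESeq2 adjusted p = 0.00326), beside 459 of all genes, and limma-voom called 0 members beside 135 genes. When blocked 16.2% of all genes were called (5.46% upward and 10.7% downward) and 2 members: Hspb1 departed upward by 1.52 (SE 0.27, edgeR adjusted p = 0.00546) and Hspd1 downward, at −1.05 (SE 0.21, edgeR adjusted p = 0.00989). Line by line the departure of Hspb1 was 1.12, 1.45 and 2.02 in A1005, A1129 and A1471, and that of Hspd1 was −0.73, −1.33 and −1.13. Without A1129 both blocked calls were lost (edgeR adjusted p = 0.0775 for Hspb1 and 0.0945 for Hspd1), and without A1471 that of Hspd1 was lost (edgeR adjusted p = 0.096). Hspe1 was called when A1005 was left out (edgeR adjusted p = 0.0381). For 8 of 10 members the departure had 1 direction in all 3 lines, beside 57.2% of all genes, the exceptions being Hspa1b and Hsp90ab1.

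**Figure D4:**
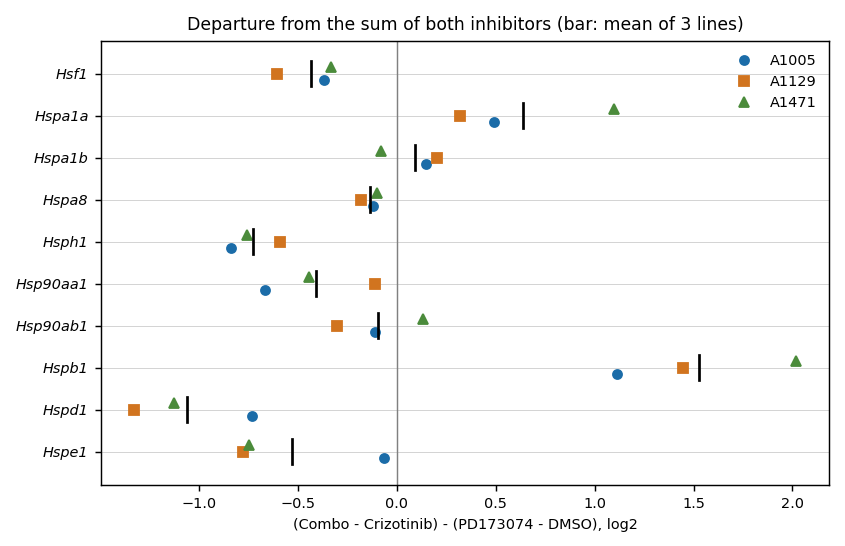
Departure from additivity of each member in log2 units, with 1 point per cell line and a bar at the mean of the 3 lines. Hspb1 lies above 0 in all 3 lines, at 1.12 to 2.02, and Hspd1 lies below 0, at −1.33 to −0.73.

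The wider chaperone network was read from 9 lists, which hold 97 genes outside the members with some genes on more than 1 list. Of these, 92 were tested, and Combo against DMSO called 2 higher and 15 lower without pairing, beside 6.1% of all genes higher and 8.28% lower. The other 5, Hsf5, Hsbp1l1, Hspa1l, Hspb3 and Hspb9, had at most 4 counts in any library. When blocked 22 of 92 were higher and 39 lower, beside 28.6% and 26.2% of all genes, so that the number of higher genes was no more than the share over all genes gives. The blocked counts of each list below stand against the same 2 shares. The median log2 fold change was −0.20 over the 92 genes and 0.02 over all genes. PD173074 alone and Crizotinib alone called 0 of them in both edgeR fits.

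The cytosolic chaperonin CCT and prefoldin, which fold actin and tubulin, had the most lower genes without pairing, 8 of 14, with 12 lower and 1 higher when blocked and a median of −0.78. Cct7, Cct8 and Pfdn6 fell, at −0.93, −0.84 and −0.93 on the log2 scale (edgeR adjusted p = 0.00336, 0.00834 and 0.00969). HSP90 paralogs and co-chaperones had 3 of 16 lower (9 lower and 3 higher when blocked, median −0.33). Among them Ptges3, the p23 that stabilises closed HSP90, fell by 1.15 (edgeR adjusted p = 0.00369), and the phosphatase Ppp5c and the immunophilin Fkbp4 fell, at −0.99 and −0.91 (edgeR adjusted p = 0.0159 and 0.0236).

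The list of mitochondrial import and quality control genes had 0 of 10 called without pairing, 7 lower when blocked and a median of −0.50. Its members include Hspa9, the mitochondrial HSP70, at −0.94 (edgeR adjusted p = 0.0935; in the blocked fit 8.1e-05), the protease Lonp1 at −0.50 (0.0642 and 0.00161) and the nucleotide exchange factor Grpel1 at −0.51 (0.0956 and 0.00272). These 3 had the lowest p of the list for Combo against DMSO. Of the 10 genes 8 had negative log2 fold changes with Combo, beside 6745 of all 13836 genes tested. The other 2 were Clpx at 0.04 and Spg7 at 0.05.

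The other HSP70 and HSP110 genes had 1 higher and 1 lower of 10 tested, 2 and 5 when blocked, and a median of −0.38. Hspa14, a ribosome-bound HSP70, fell by 0.97 (edgeR adjusted p = 0.00184), and Hspa2, best known from testis, rose by 1.26 (edgeR adjusted p = 0.0406). J-domain co-chaperones, which start the ATP cycle of HSP70, had 0 higher and 2 lower of 21, 6 and 4 when blocked, shares close to or below those over all genes, and a median of 0.15. Dnajc9, which also binds histones, fell by 1.56 (edgeR adjusted p = 0.00198) and the ribosome-associated Dnajc2 fell by 1.10 (edgeR adjusted p = 0.0412), while Dnajb9 of the endoplasmic reticulum was at 0.73 (edgeR adjusted p = 0.0525; in the blocked fit 0.0025). The BAG and related nucleotide exchange genes had 0 of 10 called, 2 higher and 5 lower when blocked, and a median of −0.26. Bag2 was at −0.72 and Bag4 at −0.92 (edgeR adjusted p = 0.0654 and 0.138; in the blocked fit 0.00141 and 0.00104).

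The small heat shock proteins beside Hspb1 had 0 of 7 called without pairing and 5 higher when blocked, with a median of 1.30. That median is the value of Hspb2, which had 0–8.98 CPM with DMSO and 1.13–18.3 CPM with Combo. Cryaa was low too, at 0–2.19 CPM with DMSO and 0–13.2 CPM with Combo, which limits such fold changes. Cryab, which encodes alpha B-crystallin, had 0.622–51.0 CPM with DMSO and 77.4–387 CPM with Combo. The log2 fold change of Cryab was 3.21 (edgeR adjusted p = 0.199), or 4.03 in the blocked fit (edgeR adjusted p = 0.00157). Hspb7 and Hspb6 were at 2.75 and 0.51 (edgeR adjusted p = 0.106 and 0.383). In the blocked fit the edgeR adjusted p was 0.00734 and 0.0056. Hspb7 had 0.276–1.01 CPM with DMSO and 0.439–8.12 CPM with Combo, so its treatments overlapped. Hspb8 had the highest mean of the list with DMSO, with libraries at 43.7–148 CPM, and was at 85.3–122 CPM with Combo. The log2 fold change of Hspb8 was −0.12 (edgeR adjusted p = 0.924), or 0.10 in the blocked fit (edgeR adjusted p = 0.789).

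Heat-inducible targets of HSF1 outside the members did not move in 1 direction: of 14, 1 was higher and 2 were lower without pairing, 5 and 4 when blocked, and the median was 0.08. Cacybp, a co-chaperone that links HSP90 to ubiquitin ligases, fell by 1.14 (edgeR adjusted p = 0.0025), and Fkbp4 fell as given with the HSP90 co-chaperones. Of the HSF family and its regulators 4 of 6 were tested and 0 were called without pairing. Hsf2, the paralog that forms mixed trimers with HSF1, was at −0.03 (edgeR adjusted p = 0.931), and Hsbp1, which binds the trimer and holds HSF1 back, was at 0.38 (edgeR adjusted p = 0.469) and was the 1 gene of the list called when blocked (edgeR adjusted p = 0.00495). Ier5, a regulator of HSF1, and Hsf4 were at −0.54 and 0.55 (edgeR adjusted p = 0.227 and 0.695).

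**Figure D5:**
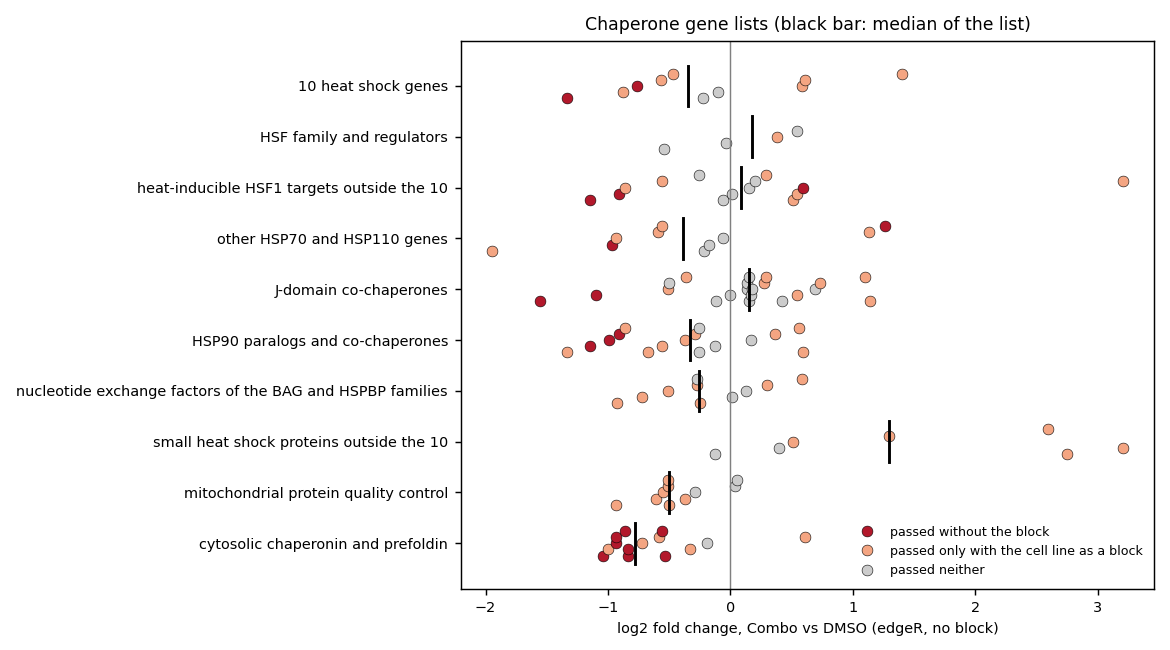
Log2 fold change of Combo against DMSO for every tested gene of each chaperone list, with 1 point per gene, the list median as a bar and the colour giving whether the gene was called without pairing, in the blocked fit alone or in neither; the 10 heat shock genes are the top row. The CCT and prefoldin list has its median at −0.78 and the small heat shock proteins at 1.30, while the median of all genes is 0.02. The value of 1.30 is that of Hspb2, which was at 0 CPM in its lowest DMSO library.

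Against Crizotinib, Combo called 2 genes of these lists higher and 12 lower, or 23 and 38 of 92 in the blocked fit, beside 27.4% of all genes higher and 26% lower. Against PD173074 it called 0 higher and 6 lower, or 15 and 30 when blocked, beside 19.6% and 20.2% of all genes. The departure from additivity called 0 of the 92 without pairing and 4 upward and 15 downward when blocked, beside 5.46% and 10.7% of all genes. In these comparisons too the higher genes were no more frequent in the lists than among all genes.

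The genes whose pattern was most like that of Hsf1 were Lclat1, Ebna1bp2, Klhdc4, Arhgap22 and Mrc2, with Pearson's r of 0.993 to 0.995 over the 12 libraries after centring log2 CPM within each line, among 9602 genes. For Hspb1 they were Copg2, Arfgap1, Cyhr1, Ergic3 and Oaz2, with r of 0.982 to 0.985. Without centring on lines 0 of the 5 remained among the top 5 for either gene. In the same centred values Hspd1 had r of 0.97 with Hspe1 and with Hsf1, and −0.96 with Hspb1. The 12 points share cell lines and treatments, and the coefficients describe these libraries only.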

How the data were processed

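RNA from 12 tumoursphere cultures (4 treatments of 3 lines) was sequenced on a NextSeq500. Per the processing notes, the authors used bcl2fastq, STAR and HTSeq on mm10 and deposited whole-number read counts per gene, not normalized; versions, counting mode, strand and annotation release are not given in the sources used here. Replicates were not pooled.

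The counts were tested in edgeR 4.0.16 (R 4.3.3) with the quasi-likelihood test: filterByExpr with a minimum count of 10 and a minimum total of 15, TMM scaling, all 12 libraries in 1 fit without pairing, and Benjamini-Hochberg adjustment over 13836 genes at 0.05. CPM are TMM-scaled. Levels per kb used GENCODE exon lengths, and coordinates are 1-based. Same-numbered libraries come from the same line, so the cell line was also fitted as a replicate block. Their deviations from treatment means correlated with r of 0.766 to 0.962 over 18 pairs. Subtracting the treatment means forces pairs of different lines towards negative r, so their mean of −0.422 over 36 pairs is not a separate contrast. Alternatives were DESeq2 1.42.0, limma-voom 3.58.1, other scalings and filters, and leaving out lines. The scripts were tested on simulated data.

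The members and lists were chosen with earlier results of these data known. Named were all members, the 3 genes of each list with the lowest p for Combo against DMSO, Hsf2, Hsbp1, 4 inhibitor readouts and the 5 genes most like Hsf1 and most like the member with the largest fold change. 1 gene that this rule names is not reported here.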

Additional observations from a re-analysis of the deposited data

Results flagged for a closer look

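Both results below concern the effect of PD173074, which differed between cells with and without Crizotinib by the test of that difference with the cell line as a block. Hspb1 departed from additivity by 1.52 on the log2 scale (SE 0.27, edgeR adjusted p = 0.00546), upward in 3 of 3 lines. Hspd1 departed by −1.05 (SE 0.21, edgeR adjusted p = 0.00989), downward in 3 of 3 lines. Without pairing edgeR called neither, and with A1129 left out neither was called with the block. With A1471 left out the blocked call of Hspd1 was lost too. These are 2 of 10 members, and the same blocked test called 16.2% of all genes, 5.46% upward and 10.7% downward.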

How the results depend on the processing

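With the cell line as a replicate block the members called went from 2 to 8 for Combo against DMSO, from 2 to 8 against Crizotinib, from 1 to 6 against PD173074 and from 0 to 2 for the departure from additivity; the chaperone list genes called went from 17 to 61, from 14 to 61, from 6 to 45 and from 0 to 19. Over all genes the edgeR calls went from 14.4% to 54.8%, from 13.2% to 53.4%, from 4.77% to 39.8% and from 0.918% to 16.2%. In the same order DESeq2 with the replicate block called 8, 8, 6 and 2 members and 62, 63, 46 and 28 list genes, and 1 list gene for PD173074 against DMSO. Beside them it called 7357, 7223, 5467 and 2792 of the 13836 genes, and 635 for PD173074 against DMSO. DESeq2 without the replicate block called 2 members against PD173074 and 1 for the departure, and 31, 26, 15 and 4 list genes. Over all genes it called 3032, 2930, 1556 and 459. Without a filter 1 member was called against Crizotinib, and 9 and 8 list genes against DMSO and Crizotinib. With only the groups compared in the fit, 1, 1 and 0 members and 3, 2 and 0 list genes were called for Combo against DMSO, Crizotinib and PD173074, and with an added minimum log2 fold change of 1.5, 0 members and 1, 0 and 0 list genes. Fewer libraries estimate the spread in the former. The share over all genes is not given for the fits without a filter, with only the groups compared, or with the added minimum. Nor is it given for the fits below that leave out 1 line, so these counts stand alone.

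Leaving out 1 line without pairing, the members called were 0 to 2 in each of these 3 comparisons and the list genes 0 to 18, 0 to 15 and 0 to 7; the calls were lost without A1129 and without A1471. With the replicate block the members were 5 to 8, 4 to 7 and 2 to 5, and 0 to 3 for the departure; the list genes were 41 to 57 (52 without A1129), 38 to 54 and 24 to 44, and 1 to 16 for the departure.

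No member changed direction in Combo against DMSO, Crizotinib or PD173074 in any of these settings. Log2 fold changes near 0 did elsewhere. Hsf2 in Combo against DMSO became 0.013 with total counts and 0.00697 with 10 counts required in every library, and ran from −0.067 to 0.041 without 1 line (blocked −0.068 to 0.041). For PD173074, leaving out 1 line gave −0.10 to 0.012 for Hsp90aa1 (blocked up to 0.0041), −0.107 to 0.0014 for Hsp90ab1 (blocked up to 0.00016) and −0.034 to 0.159 for Hspb1. For Crizotinib it gave −0.012 to 0.040 for Hsf1 (blocked from −0.013), −0.340 to 0.035 for Hspa1a, −0.073 to 0.023 for Hspa8 (blocked up to 0.027), −0.102 to 0.048 for Hspb1 (blocked −0.100 without A1005 and −0.014 without A1471) and 0.014 to 0.125 for Hsph1 (blocked from −0.019). Hspb1 under Crizotinib was also −0.029 with the replicate block and −0.031 with DESeq2 and the block. The departure of Hsp90ab1 ran from −0.207 to 0.038 (blocked up to 0.018). The cause was not tested.

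The separation of lines in Hspa1b, the 1 member with it, also held with DESeq2 size factors and with total counts, both chosen after seeing the data. Hspa1a in A1471 rests on the fewest reads, 32 in its lowest library, which limits its precision.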

Other observations

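Rows of the table for near-identical copies of the members, looked at after the values were seen, held reads too. Gm15459, which shares 34.6% of the 50-base stretches of Hspa8 exons, held 5131 to 8336 counts per library and stood at 491 ± 87.7 CPM with DMSO and 469 ± 90.4 CPM with Combo (SD, n = 3), a log2 fold change of −0.07 that was not called (edgeR adjusted p = 0.890). It took 25.1% of the reads of both genes, and their sum was 1978 ± 351 CPM with DMSO and 1854 ± 284 CPM with Combo. Gm10501, which shares 7.95% of the stretches of Hspa1a and 6.79% of those of Hspa1b, held 5 to 46 counts, or 12.5% of the reads of it and Hspa1a and 3.23% of the reads of it and Hspa1b. Hspd1-ps3, which shares 38.0% of the stretches of Hspd1, held 33 to 94 counts, or 0.444% of the reads of both. Gm12346, which shares 41.8% of the stretches of Hsp90aa1, held 49 to 123 counts, and Hsp25-ps1, which shares 48.8% of those of Hspb1, held 0 to 7. No stretch of Hsf1 or Hsph1 occurred in another annotated gene.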
